A study of Rattus norvegicus with 20 samples.

Results

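Visceral white adipose tissue of rats on 30% calorie restriction (CR) for 1 month was compared with the same tissue of rats on 20% CR for 1 month. The question was why fewer genes stood apart from the control at 30% than at 20%, that is, which genes had turned back at 30% and which had gone on in the direction already seen at 20%. The 4 chips of the comparison, of 20 in the series, were taken by their labels: the 2 chips of the 30% CR pool and the 2 chips of the 20% CR pool, paired by replicate number. The rats of all groups were male Wistar animals, an outbred strain, aged 6 weeks when the feeding began, and all were fasted for 16 h before the fat was collected. Controls received the whole of a recorded free intake, and the other groups received 5%, 10%, 20% or 30% less, for 1 week or for 1 month. RNA from the 5 rats of a group was combined, and 2 chips were hybridised with each such pool. They repeat the hybridisation and not the animals, each group is 1 pool, and the p-values below measure the spread between pools of different groups. Tissue from single rats was not measured.

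White fat stores triglyceride in adipocytes, which release fatty acids in fasting and secrete hormones such as leptin in proportion to their fat content. The same tissue holds fibroblasts, blood vessels with contractile smooth muscle cells, macrophages, and, in visceral depots, lymph nodes and other lymphoid clusters that are rich in T and B cells. A sample of whole tissue mixes all of these. The circadian clock also runs in fat and responds to meal timing.

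Expression was given as signal intensity of a probe set on a linear scale, and differences are given in log2 units. Of 15866 probe sets, 9520 passed a filter on mean signal and stood for 7113 named genes. The duplicate chips of a pool correlated at 0.971 to 0.982 over probe sets in the 10 pools. The tissue label was borne out by its markers: 26 of 29 adipocyte markers were on the array and passed the filter, and their mean level was 10.02 in the 30% pool, 10.19 in the 20% pool and 9.82 in the control pool (log2 signal). From 0.996% to 3.87% of a chip's probe sets were at the lowest signal that was allowed.

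Lymphocyte and class II antigen presentation genes were among those higher in the 30% pool than in the 20% pool, and contractile smooth muscle genes, some clock output genes and a few adipocyte genes were among those lower. A probe set was counted where both paired chip differences pointed the same way and the pool means were 1.5-fold or more apart. By this rule 400 probe sets were higher at 30% than at 20% (4.20% of those tested) and 190 were lower (2.00%), together 590 (6.20%). With each chip centred on its median the same rule gave 316 higher and 304 lower, and with quantile normalization 327 and 282. The median difference over all probe sets was 0.01 as deposited, -0.08 after centring and -0.01 after quantile normalization.

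None of these differences passed the test against the spread between pools. In limma, with the spread taken from the 8 other pools around a dose line for each duration, 0 of 9520 probe sets passed an adjusted p of 0.05, and 474 (4.98%) had an unadjusted p under 0.05, of which 262 (2.75%) were higher and 212 (2.23%) lower at 30%. The lowest adjusted p-values in limma were 0.107 for Mest, 0.219 for Oxtr and 0.547 for Hspb1. A fit of single chips in limma, with the chip number in the design and the pool as a random block, let the technical repeats add to the precision and called 17 probe sets (0.179%). The 9 higher at 30% were Cd74, Glycam1, Cd53, Lyz2, RT1-Ba, RT1-Da, Il2rg, Ptprc and Cxcl13, and the 8 lower were Hspb1, Tinagl1, Cryab, Mest, Fndc3b, Oxtr and 2 probe sets without a gene symbol. The values below are thus descriptions of these 2 pools, with the technical standard error of the paired chip differences (n = 2 pairs) beside each difference. The median of that technical error over all probe sets was 0.11, against a median standard error of 0.23 in limma.

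Against the control pool of 1 month, 1286 probe sets stood apart at 30% CR by the chip rule (13.5% of those tested, 5.44% or 518 higher and 8.07% or 768 lower), and 1573 stood apart at 20% CR (16.5%, 6.31% or 601 higher and 10.2% or 972 lower). The 30% pool thus had 287 fewer. Both pools stood apart in the same direction at 864 probe sets, the 30% pool alone at 421, the 20% pool alone at 708, and 1 probe set differed in opposite directions. The deficit at 30% remained under every scaling tried but its size moved, to 485 with each chip centred, 185 after quantile normalization and 145 with a stricter filter.

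Probe sets that followed the lymphocytes were set apart by a choice that used neither of the compared pools. A probe set was called lymphocyte-linked where its signal, centred within duration, correlated at 0.8 or more with the mean of 15 lymphocyte markers over the other 8 pools. This took 1404 of the 9520 probe sets. Restriction level and lymphocyte level went together in those pools, so linked probe sets need not be expressed in lymphocytes: Acta2, the smooth muscle actin, and Scd2, a fatty acid desaturase, were among them. The linked probe sets made up 216 of the 287 fewer at 30% (75.3%), with 423 apart from control at 30% and 639 at 20%. The remaining 8116 probe sets made up 71, with 863 apart from control at 30% and 934 at 20%. That division depended on the scaling. With each chip centred the linked probe sets made up 131 and the others 354, and after quantile normalization 164 and 21.

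The lymphocyte genes were far below control at 20% CR and nearer to it at 30% CR. That they were higher at 30% was known when the comparison was set up, so their values are a description. The mean of the 15 tested markers was 7.24 and 7.20 (log2 signal) on the 30% chips, 4.62 and 4.59 on the 20% chips, and 8.10 and 8.21 on the control chips. In order of restriction the pools of 1 month stood at 8.16 (control), 8.14 (5%), 4.53 (10%), 4.60 (20%) and 7.22 (30%). The 30% pool thus left the low level shared by the 10% and 20% pools and lay below the control and 5% pools. In such whole tissue, fewer cells of a type and less RNA per cell cannot be told apart. By the chip rule 14 of the 15 markers were higher at 30% than at 20%, with a median difference of 2.58, against 293 higher and 129 lower of all 7113 genes and a median of 0.01. The exception was Cd48, at -0.23. All 14 were lower than control at both 30% and 20%.

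Cd79b, a signalling chain of the B cell receptor, had signals of 133.5 and 124.1 on the 30% chips, 1.4 and 6.3 on the 20% chips, and 280.2 and 267.6 on the control chips. Its difference was 5.44 ± 1.14, with both 20% signals dim and its size accordingly loose. Cd3g, a chain of the T cell receptor complex, had 236.1 and 225.6 on the 30% chips, 14.9 and 20.7 on the 20% chips, and 454.9 and 536.3 on the control chips. Coro1a, an actin-binding protein of leukocytes, was brighter, with 340.0 and 325.6 on the 30% chips, 36.2 and 37.9 on the 20% chips, and 664.9 and 728.2 on the control chips. Its difference between the pools was 3.17 ± 0.06, an 8.98-fold higher signal at 30%. For all 3 genes the chips of the 3 pools did not overlap and the 30% chips lay between the others. The limma standard errors were large, 1.88 for Cd79b, 1.34 for Cd3g and 1.16 for Coro1a, and the adjusted p in limma was 0.889, 0.913 and 0.913.

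Genes of lymph nodes were higher at 30% in part. By the rule 3 of 7 were, Glycam1, Cxcl13 and Prox1, and none was lower, though 3 of the 7 lay below 0 (median 0.28). The same rule gave 293 higher and 129 lower of all 7113 genes. Glycam1, a ligand for L-selectin made by the high endothelial venules of lymph nodes, had signals of 168.1 and 147.5 on the 30% chips, 29.1 and 20.5 on the 20% chips and 464.0 and 567.8 on the control chips. Cxcl13, the chemokine that draws B cells into follicles, had 233.5 and 200.3 on the 30% chips, 12.9 and 21.6 on the 20% chips and 500.3 and 567.9 on the control chips, a difference of 3.70 ± 0.48 between the compared pools. Its adjusted p in limma was 0.763, and was between 0.0437 and 0.0459 when the control, 5% or 10% pool of 1 month was left out. Any of these omissions leaves only 2 pools for the dose line of 1 month, so that the spread then comes from the 1-week pools alone. Of 10 genes for class II antigen presentation 6 were higher at 30% and none lower (median 1.04), and all 10 lay above 0. Cd74, the invariant chain that guides class II molecules, had 1624 and 1427 on the 30% chips, 566.6 and 582.6 on the 20% chips and 2796 and 2827 on the control chips. The 30% chips again lay between the 20% and the control chips.

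Most macrophage markers missed the rule. Of 20 tested, 3 were higher at 30%, Fcgr3a, Lyz2 and Mpeg1, and none was lower (median 0.17). Of all 7113 genes 293 were higher and 129 lower. The complement components C1qa, C1qb and C1qc, made in fat mainly by resident macrophages, differed by -0.08, -0.01 and -0.06. Of 26 cell cycle genes 7 were higher and none lower (median 0.30), and 20 of the 26 were lymphocyte-linked. Mcm3, a part of the replicative helicase, was at 47.3 and 52.4 on the 30% chips, 8.2 and 27.6 on the 20% chips and 76.9 and 92.9 on the control chips, and Cdk1, the kinase that drives mitosis, was at 37.2 and 31.8, 20.3 and 15.2, and 34.1 and 52.8 on the same chips. Of 24 interferon response genes 4 were higher (median 0.01), among them the immunoproteasome subunits Psmb8 and Psmb10. No ribosomal protein gene of 29 met the chip rule, though 28 lay above 0 (median 0.28). With the mean of the lymphocyte markers as a covariate in limma the median difference was 0.13 for the class II genes, 0.41 for the macrophage markers, -0.15 for the cell cycle genes and -0.0037 for the ribosomal protein genes, and no gene passed.

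Slpi, a secreted inhibitor of leukocyte proteases that mesothelium and other epithelia also make, was linked as well. It had 460.1 and 392.1 on the 30% chips, 90.4 and 91.8 on the 20% chips and 1137 and 1201 on the control chips, a difference of 2.22 ± 0.13. Of 9 mesothelial markers 1, Slpi itself, was higher and 1, Igfbp5, was lower, with a median of -0.08. Among all 7113 genes the counts were 293 and 129.

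**Figure D1:**
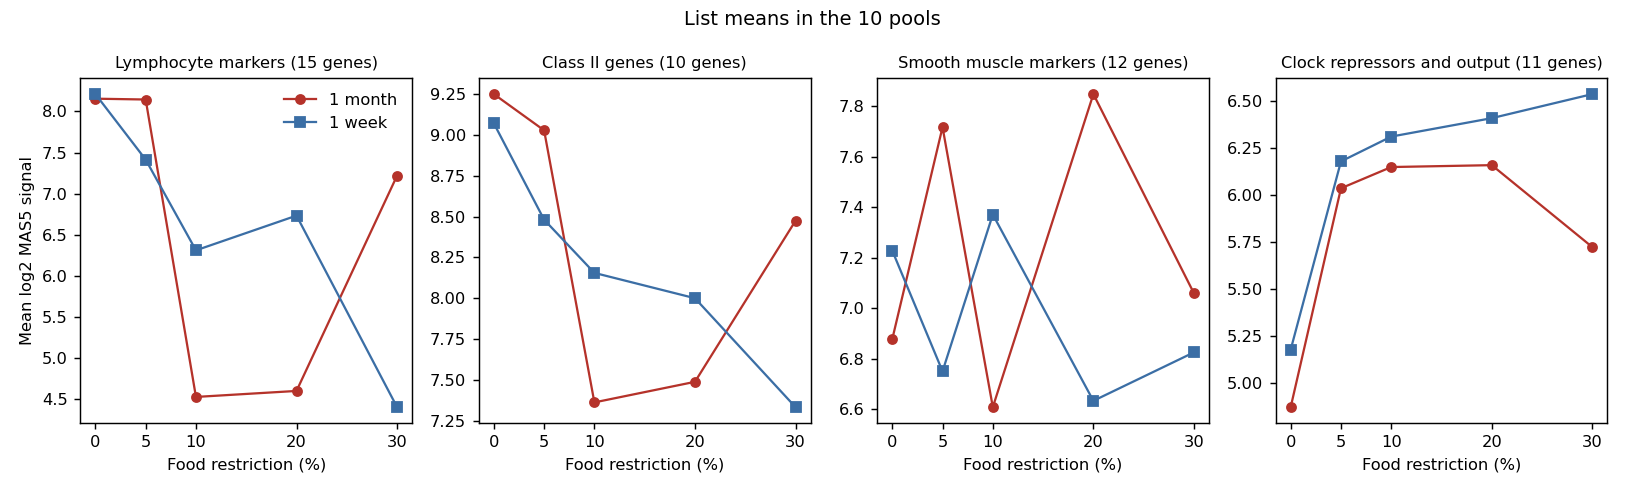
Mean log2 signal of 4 gene lists (vertical axes) against food restriction in percent, with 1 point a pool and a line for each duration; the durations were scaled apart before deposit, so levels compare only along a line. At 1 month the lymphocyte markers were at 7.22 in the 30% pool and 4.60 in the 20% pool, while smooth muscle markers were at 7.06 and 7.85.

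Among all lymphocyte-linked probe sets, 260 were higher and 8 lower at 30% than at 20% (median 0.19). Of the 639 that were lower than control at 20%, 252 turned back, meaning that the step from 20% to 30% met the chip rule in the opposite direction. Their median difference from control was -0.74 at 30% and -1.80 at 20%. Turning back was incomplete for most: 165 of the 252 were still lower than control at 30% by the rule, and 87 were not. A further 386 held, with a step that missed the rule, and 1, Mrtfa, went on, with signals of 41.6 and 13.2 at 30% and 44.3 and 40.4 at 20%. By the rule no linked probe set was higher than control at either level. The choice favours this, since the lymphocyte mean was highest in the control pools and the control pool of 1 month enters both the link and the difference.

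Outside the lymphocyte-linked probe sets, 140 were higher and 182 lower at 30% than at 20% (median -0.01). The balance leaned further to lower with other scalings, 87 higher and 286 lower with each chip centred and 92 and 263 after quantile normalization. With a link at 0.9 in place of 0.8 the rest gave 193 higher and 187 lower. Of the 934 probe sets that stood apart from control at 20%, 803 held, 118 turned back and 13 went on, and 95 were new at 30%, that is, apart from control at 30% and from 20% but not at 20%. Of the 118 that turned back 108 no longer differed from control at 30% by the rule. The 20% pool enters both differences that define turning back, so an error or a peculiarity of that pool alone gives the same pattern.

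**Figure D2:**
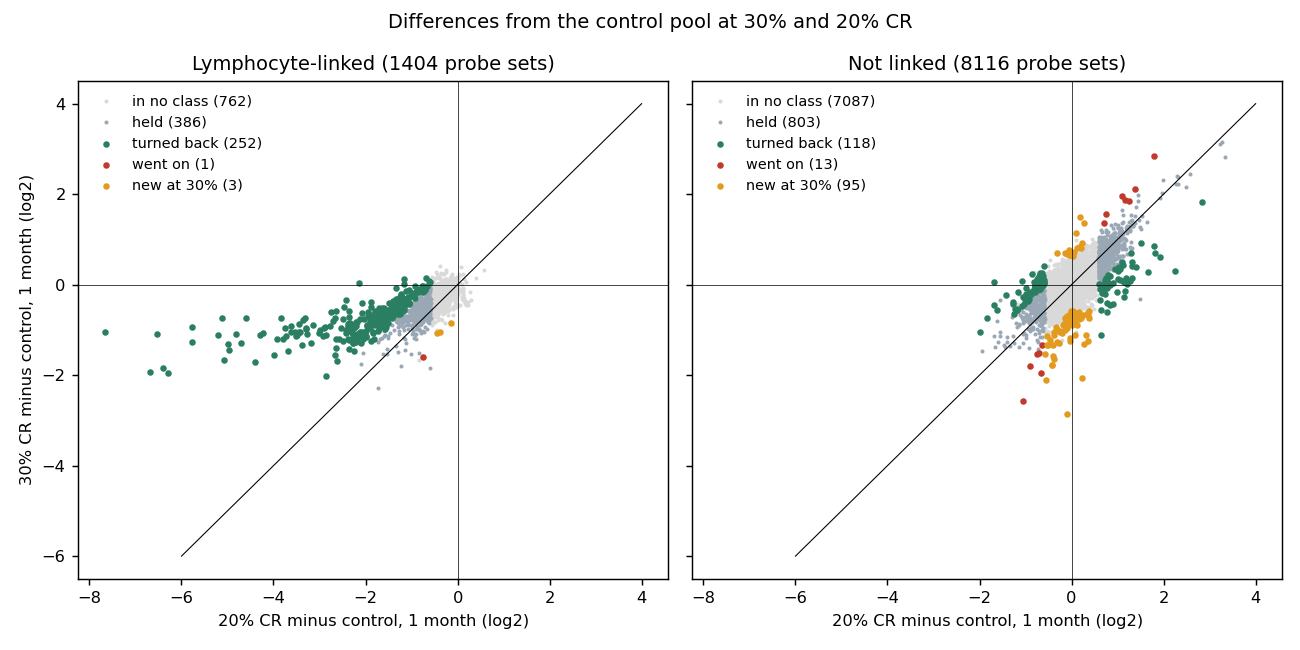
Difference from the control pool at 1 month in log2 units, at 30% CR (vertical axis) and at 20% CR (horizontal axis), for the 1404 lymphocyte-linked and the 8116 other probe sets, with 1 point a probe set coloured by class and the diagonal as the line of equal difference. The 252 linked probe sets that turned back lie above the diagonal and mostly below 0, and the 803 others that held lie along it.

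Of the gene lists, the smooth muscle markers held most members that turned back from above, 7 of 12, against 37 of all 7113 genes. Of the 12 tested markers 8 were lower at 30% than at 20% and none was higher, with a median of -0.94 and all 12 below 0. Over all 7113 genes 129 were lower and 293 higher. Actg2, the enteric smooth muscle actin, had 340.7 and 312.8 on the 30% chips, 910.7 and 789.6 on the 20% chips and 287.4 and 248.8 on the control chips. Myh11, the smooth muscle myosin heavy chain, had 362.3 and 335.8 on the 30% chips, 644.5 and 674.5 on the 20% chips and 268.2 and 258.7 on the control chips. In both genes the 30% and control chips lay close together and the 20% chips stood above them without overlap. The differences were -1.38 ± 0.04 for Actg2 and -0.92 for Myh11. Cnn1 (calponin), Tagln (transgelin), Myl9 (the regulatory light chain), Mylk (the kinase of that chain), Des (desmin) and Lmod1 were lower too, by between 0.65 and 1.20 log2 units. The 4 markers that missed the rule were Acta2 (-0.45), Smtn (-0.30), Rgs5 (-0.24) and Pdgfrb (-0.16), of which Rgs5 and Pdgfrb mark pericytes. The tropomyosins Tpm2 (-1.21 ± 0.07) and Tpm1 (-0.93 ± 0.12) and the calmodulin-binding peptide Pcp4 (-1.96 ± 0.13) turned back as well. Another tested Tpm1 probe set missed the rule at -0.19, and at 1 week Pcp4 was 2.72 higher at 30% than at 20%.

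These genes did not follow the restriction level. The mean of the 12 markers at 1 month was 6.88 in the control pool, 7.72 at 5%, 6.61 at 10%, 7.85 at 20% and 7.06 at 30% CR, so that the 5% pool was nearly as high as the 20% pool. At 1 week the median difference between 30% and 20% was 0.20, in the other direction. None of the 12 had an unadjusted p under 0.05 in limma, where the standard error for Actg2 was 1.07 and its adjusted p was 0.997. With the lymphocyte score as a covariate in limma the median difference of the list was -1.61.

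**Figure D3:**
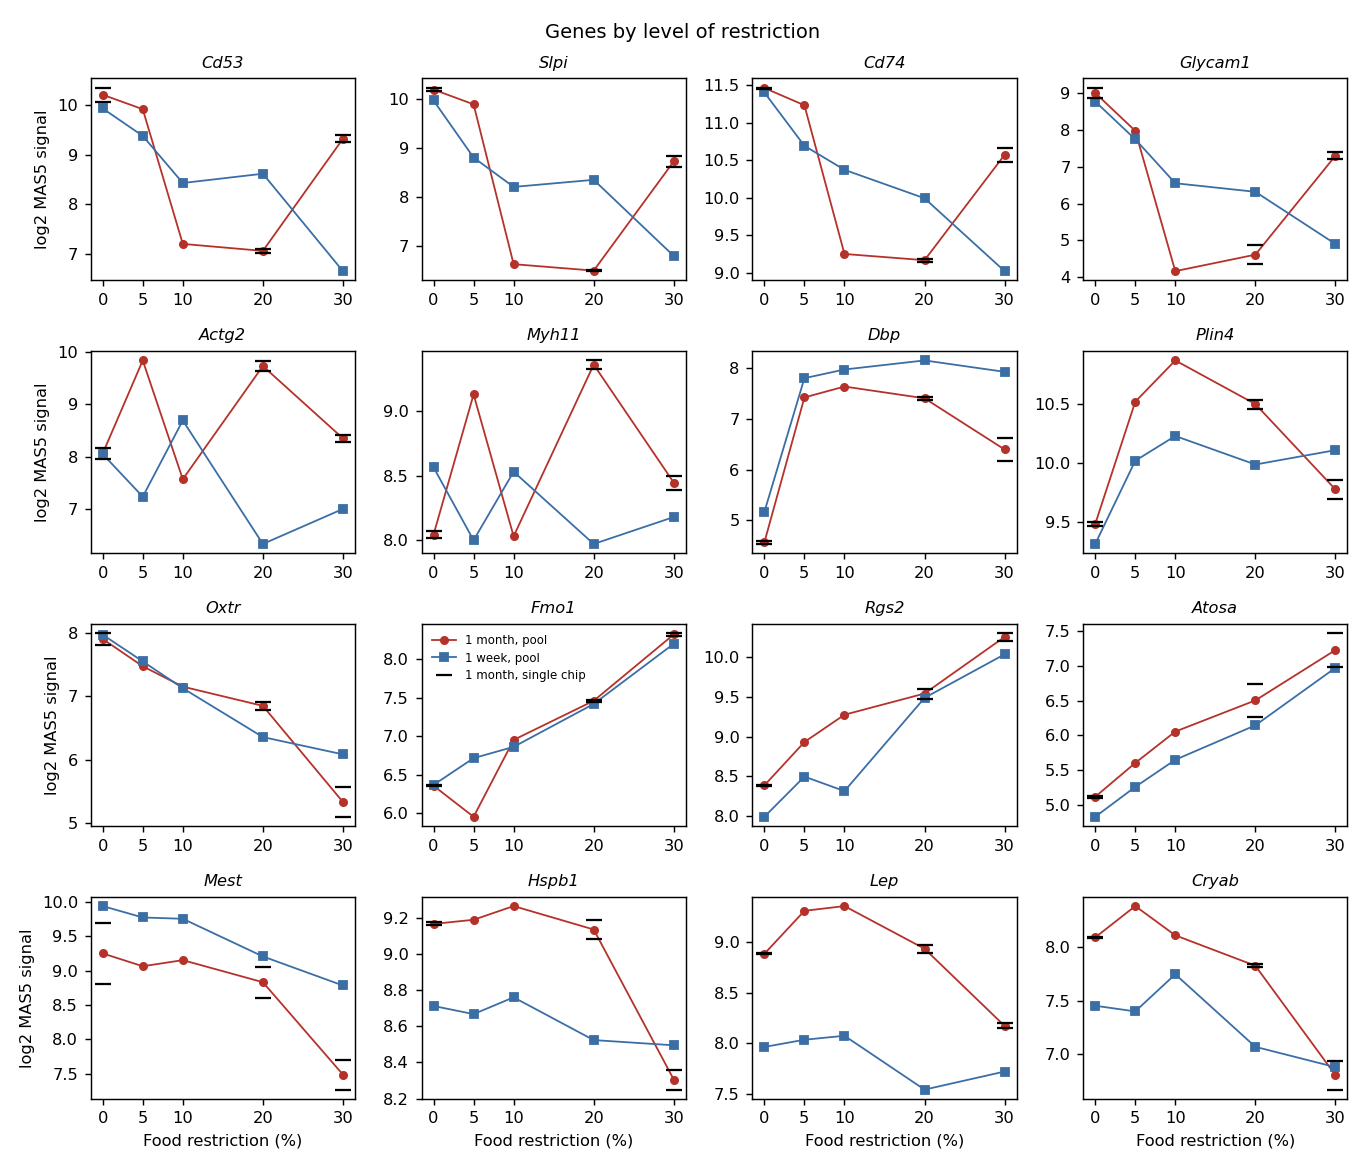
Log2 signal of 16 genes (vertical axes) against food restriction in percent, with a point for each pool mean, a line for each duration, and short bars for the single chips of the 30%, 20% and control pools at 1 month. At 1 month Actg2 and Myh11 were high in the 5% and 20% pools, the genes of the top row were low at 10% and 20%, and among the 5 pools Oxtr was lowest and Fmo1 highest at 30%.

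All 53 probe sets that turned back from above control were outside the linked set, which by its choice leans to probe sets below control. The medians of the 53 ran the same zigzag course. The median difference from control was 0.58 at 5%, 0.24 at 10%, 1.00 at 20% and 0.09 at 30% CR, and 48 of the 53 lay above control in the 5% pool. So did 509 of the 541 that held above control, and the control pool enters the choice and every one of these differences.

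A few clock output genes, 2 of 11 by the rule, also turned back. On average they were above control in every restricted pool of 1 month, and lower at 30% than at 5%, 10% or 20%. The mean of 11 clock repressor and output genes was 4.87 in the control pool, 6.04 at 5%, 6.15 at 10%, 6.16 at 20% and 5.73 at 30% CR. Of the 11, 3 were lower at 30% than at 20% by the rule and none was higher (median -0.48). Among all 7113 genes 129 were lower and 293 higher. Dbp, a transcription factor whose level follows the clock closely, had 98.9 and 72.1 on the 30% chips, 174.2 and 166.1 on the 20% chips and 24.3 and 23.2 on the control chips. Its difference was -1.01 ± 0.19 between 30% and 20%, while the 30% pool remained 1.83 above control. The related factor Hlf (-0.60 ± 0.10) and the repressor Bhlhe40 (-0.74 ± 0.12) were the others. Only 2 of these 3 turned back, since the other did not stand apart from control at 20% by the rule. Another probe set of Hlf gave 1.19, but it was below the filter, at signals of 2.8 at 30% and 1.2 at 20%. Below the threshold of the rule lay Nr1d2 (-0.57), Tef (-0.53), Nr1d1 (-0.48), Cry2 (-0.47), Bhlhe41 (-0.36), Per2 (-0.27), Per1 (0.10) and Usp2 (0.13), although 2 other probe sets of Nr1d2 met the rule (-0.59 and -0.93). At 1 week the median difference of the list was 0.14, and the adjusted p of Dbp in limma was 0.997.

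The clock activator complex binds the letters CACGTG, the E-box, which read the same on both strands. In RefSeq promoters of the GRCr8 rat assembly, 250 bases before to 50 after the start, 10 of the 11 genes had an entry, 4 of these held CACGTG, and 2148 of 33469 promoters did (6.42%). The stretches of those 4 genes are given because they hold it, with the motif in capitals. They lie at chr4:143174200-143174275 on the plus strand (Bhlhe40), chr4:180569358-180569443 on the minus strand (Bhlhe41), chr10:84229600-84229685 on the minus strand (Nr1d1) and chr7:115206589-115206674 on the plus strand (Tef), with the motif 220, 48, 191 and 198 bases before the start. Of the 4, Bhlhe40 alone met the chip rule.
Bhlhe40: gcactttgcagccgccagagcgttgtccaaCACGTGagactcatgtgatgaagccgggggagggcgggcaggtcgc
Bhlhe41: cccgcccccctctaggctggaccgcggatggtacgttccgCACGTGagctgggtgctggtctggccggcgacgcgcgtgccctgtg
Nr1d1: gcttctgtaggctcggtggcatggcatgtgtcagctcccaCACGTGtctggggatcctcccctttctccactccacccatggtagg
Tef: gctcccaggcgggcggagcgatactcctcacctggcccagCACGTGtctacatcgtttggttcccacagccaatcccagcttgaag
The motif match describes these letters only. For smooth muscle genes the CArG box, bound by serum response factor, was looked for in the same way and was in 0 of the 7 promoters given for the 12 markers, against 548 of all 33469 (1.64%).

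Most adipocyte markers missed the rule. Of 26 tested, 4 were lower at 30% and none was higher (median -0.07), against 129 lower and 293 higher of all 7113 genes. Lep, which encodes leptin, had 283.3 and 293.4 on the 30% chips, 501.9 and 474.5 on the 20% chips and 470.1 and 473.1 on the control chips. Its 20% chips matched the control chips, so it was new at 30%, with a difference of -0.76 ± 0.07 between 30% and 20%. Nnat, an imprinted membrane protein gene, was also new at 30% (-0.71 ± 0.07). Plin4, a perilipin that coats lipid droplets, had 828.3 and 929.6 on the 30% chips, 1405 and 1483 on the 20% chips and 707.0 and 725.7 on the control chips, and turned back. Npr3, the clearance receptor for natriuretic peptides, was lower by 1.03 ± 0.09 and did not stand apart from control at 20% or 30% by the rule. Fabp4, Lpl, Cd36 and Pck1, which bind, release or take up fatty acids or help make the glycerol backbone of triglyceride, differed by 0.02, 0.05, -0.01 and 0.01.

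Genes that went on were few, at shares near those of all unlinked probe sets. Of 601 probe sets higher than control at 20%, 7 were higher again at 30% (1.2%). Among all 8116 unlinked ones 1.7% were higher at 30% than at 20%. The 20% pool enters both differences here as well, and an error in that pool alone lowers the count. The 7 held 5 named genes: Fmo1, Cyp2e1, Atosa, Rgs2 and Mypop. Fmo1, a flavin-containing monooxygenase, had 322.7 and 316.2 on the 30% chips, 177.4 and 174.6 on the 20% chips and 82.5 and 81.5 on the control chips, a difference of 0.86 ± 0.0032 between 30% and 20%. Rgs2, which shortens signalling through Gq-coupled receptors, had 1266 and 1185 on the 30% chips, 714.2 and 780.0 on the 20% chips and 335.9 and 331.9 on the control chips. Cyp2e1, a cytochrome P450 that oxidises ethanol and ketones, was dimmer, with 55.5 and 59.8 on the 30% chips and 30.6 and 35.3 on the 20% chips. In each of these the chips of the pools did not overlap and the order was 30%, 20%, control. Over the 7 probe sets the median difference from control was 0.48 at 5%, 0.89 at 10%, 1.16 at 20% and 1.88 at 30% at 1 month, and at 1 week 2.15 at 30%, with a median step from 20% to 30% of 0.55. Fmo1 departed from this at 5%, where it stood at 5.96 against 6.36 in the control pool (log2 signal). Fmo1, Cyp2e1, Atosa and Rgs2 belong to a list of graded genes chosen earlier on these same pools, so their course over the levels is no separate evidence. Of the 24 genes on that list 8 were higher and 2 lower at 30% than at 20%, against 293 and 129 of all 7113 genes.

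In the other direction Oxtr, Cd248 and Car8 went on. They were among 6 of the 333 unlinked probe sets lower than control at 20% (1.8%). Of all 8116 unlinked ones 2.2% were lower at 30% than at 20%. Oxtr, the oxytocin receptor, had 34.4 and 47.5 on the 30% chips, 120.6 and 110.3 on the 20% chips and 254.8 and 224.8 on the control chips. It stood at 7.90 in the control pool, 7.47 at 5%, 7.15 at 10%, 6.85 at 20% and 5.34 at 30% at 1 month (log2 signal), and at 7.97, 7.55, 7.13, 6.36 and 6.09 at 1 week. The step from 20% to 30% was -1.51 ± 0.30 at 1 month, with a limma standard error of 0.20 and an adjusted p of 0.219, and -0.27 at 1 week. Cd248, a glycoprotein of stromal cells and pericytes, had 71.0 and 61.4 on the 30% chips, 120.8 and 106.3 on the 20% chips and 241.9 and 149.6 on the control chips. Oxtr is on the graded list too.

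Genes new at 30% were mostly lower there. Of 95 unlinked probe sets 78 were lower and 17 higher, and the median difference from control of the 78 was -0.19 at 5%, -0.15 at 10%, -0.01 at 20% and -0.80 at 30%. Mest, an imprinted gene that in mice goes with growth of fat tissue, had 208.5 and 154.1 on the 30% chips, 532.6 and 389.4 on the 20% chips and 826.8 and 448.6 on the control chips. Both paired differences of Mest were nearly equal, -1.34 ± 0.0078, and the lowest control chip was above the highest 30% chip. Its level at 1 week was 9.94 in the control pool, 9.77 at 5%, 9.75 at 10%, 9.21 at 20% and 8.78 at 30% (log2 signal). The step of Mest from 20% to 30% at 1 week was -0.42. Mest is on the graded list as well, so its course over the levels is no separate evidence. Hspb1, a small heat shock protein, had 304.3 and 328.7 on the 30% chips, 542.9 and 584.0 on the 20% chips and 571.8 and 578.5 on the control chips. Cryab, another of that family, had 101.4 and 122.5 on the 30% chips, 229.8 and 224.8 on the 20% chips and 274.8 and 271.6 on the control chips, and Hspb8 differed by -0.88 ± 0.12, while another tested probe set of Hspb8 gave -0.04. They were the 3 called among 27 cytosolic chaperones, whose median was 0.01. The rule called 129 of all 7113 genes lower and 293 higher. Inhbb, a subunit of activin B, differed by -0.92 ± 0.02 and the matrix gene Mfap4 by -0.71 ± 0.12. Of 43 fibroblast and matrix genes 36 lay below 0 (median -0.19), and 2, Mfap4 and Ccn2, met the rule.

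Several of the largest steps in this class rested on dim chips. Slc35a2, a Golgi transporter of UDP-galactose, had 20.1 and 6.0 on the 30% chips and 29.9 and 35.4 on the 20% chips, and Rasgef1b had 20.9 and 6.7 on the 30% chips and 52.4 and 63.6 on the 20% chips. Their technical standard errors were 0.99 and 0.96, and another probe set of Rasgef1b, below the filter, gave 0.18. Of the genes new above control, Crat, which moves acetyl groups onto carnitine, had 152.9 and 183.6 on the 30% chips, 109.4 and 112.0 on the 20% chips and 121.7 and 96.1 on the control chips. The digestive enzyme genes Prss1 and Cpb1 were higher at 30%, at signals of 16.0 and 18.6 on the 30% chips and 7.6 and 6.3 on the 20% chips for Prss1. Of the exocrine pancreas genes 4 of 17 on the array passed the filter. At 1 month the mean of these 4 was 4.73 at 30% and 4.12 at 20% (log2 signal), while at 1 week it reached 7.36 at 30% and 12.40 in the control, and Prss1 and Cpb1 passed the filter through those pools of 1 week. Without these 2 pools limma also called 0 probe sets.

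Probe sets that turned back from below outside the linked set were dim. The median signal of these 65 was 28.4, against 84.9 over all probe sets tested, and their median difference from control was -0.20 at 5%, -0.46 at 10%, -0.80 at 20% and -0.04 at 30%. Fcgr3a, an Fc receptor of macrophages and natural killer cells, had 36.3 and 39.4 on the 30% chips, 14.7 and 17.9 on the 20% chips and 52.9 and 50.9 on the control chips. Nab2, a corepressor of early growth response factors, had 30.7 and 39.9 on the 30% chips, 17.9 and 16.1 on the 20% chips and 53.9 and 49.8 on the control chips. Cbx7, of the Polycomb group, had 43.7 and 34.6, 13.5 and 21.2, and 40.7 and 51.1 on the same chips. In these 3 genes the 20% chips were the lowest and did not overlap the others. C3 and Nr4a1 turned back as well.

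**Figure D4:**
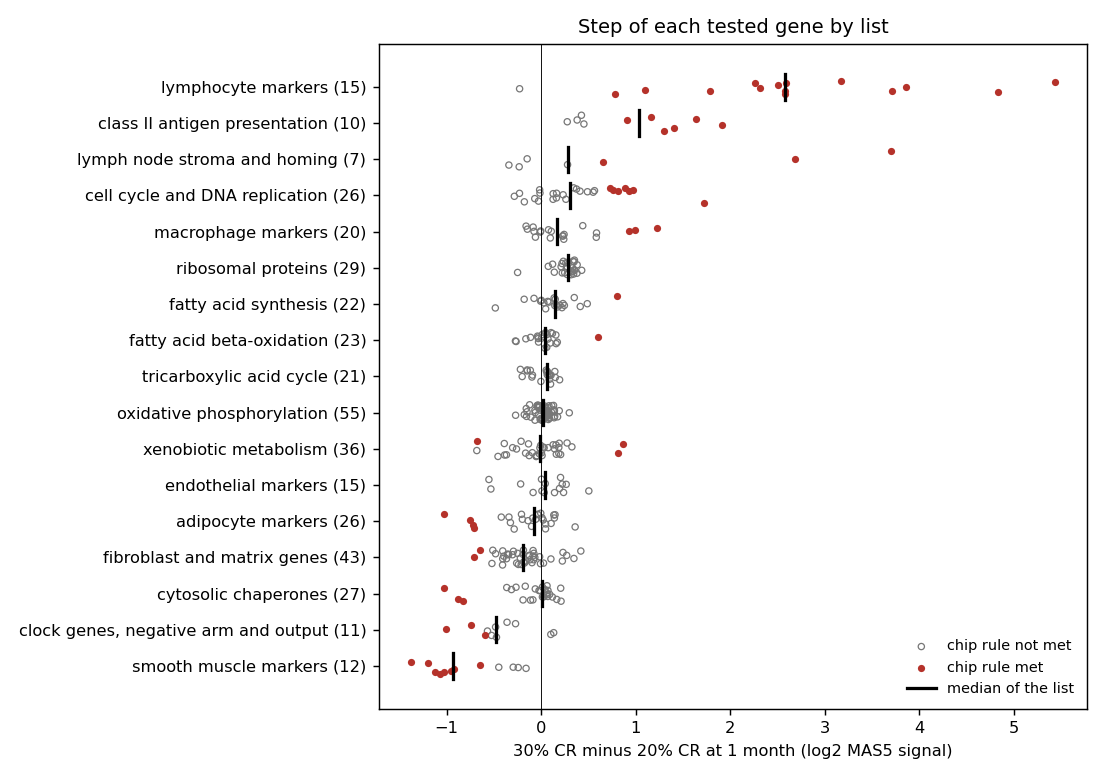
Difference between the 30% and the 20% pool at 1 month in log2 units (horizontal axis) for the tested genes of 17 lists (rows), with 1 point a gene, filled where the chip rule was met, and a bar at the list median. Lymphocyte markers (median 2.58) and class II genes (1.04) lay mostly above 0, smooth muscle markers (-0.94) and clock output genes (-0.48) mostly below it, and oxidative phosphorylation genes within 0.30 of it.

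Few steps met the rule in genes of fuel metabolism. Steps were few over all 7113 genes too, 293 higher and 129 lower, and lists this small would hold few at that share. Of 23 genes of fatty acid beta-oxidation 12 were higher than control at 30% and 11 at 20%, with 1 step by the rule, Crat. Of all 7113 genes 386 were higher than control at 30% and 448 at 20%. No step met the rule among 21 genes of the tricarboxylic acid cycle, 55 of oxidative phosphorylation, 21 of branched-chain amino acid breakdown and 16 of glycolysis, and the differences of the oxidative phosphorylation genes lay between -0.27 and 0.30. Star, which carries cholesterol into mitochondria, had 313.9 and 286.4 on the 30% chips, 387.7 and 370.0 on the 20% chips and 73.9 and 61.0 on the control chips. Coq8a, needed to make coenzyme Q, had 672.9 and 627.0 on the 30% chips, 522.7 and 509.5 on the 20% chips and 126.0 and 136.2 on the control chips. Nampt, which salvages NAD, differed by -0.03 ± 0.01 between 30% and 20%, at 1.30 above control in the 30% pool and 1.33 in the 20% pool. Over the 541 unlinked probe sets that held above control, the median difference from control was 0.69 at 30% and 0.74 at 20%. Of 22 tested genes on a list of some that the study named, chosen partly on these samples, Slpi and Fmo1 were higher and Dbp and Tubb2a lower at 30% than at 20%.

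Because the 20% pool enters the choice as well as the step, probe sets were also chosen without any of the compared chips. Of the 796 linked probe sets lower than control in the 10% pool of 1 month (13.7% of all 9520 were lower there by the rule, linked or not), 249 were higher and 5 lower at 30% than at 20%. Of the 601 unlinked ones higher than control at 10% (6.31% of all), 10 were higher and 30 lower, and of the 507 unlinked lower ones 28 were higher and 20 lower. With the direction from control taken from the 1-week chips, as lower than control both at 30% (11.8% of all were) and at 20% (8.73%), 453 linked probe sets gave 217 higher and 1 lower at 1 month. The 206 unlinked ones gave 16 higher (7.77%) and 23 lower (11.2%), both above the shares of all 8116 unlinked ones (1.72% and 2.24%). The 572 unlinked probe sets higher than control at both 30% (9.38% of all) and 20% (7.10%) gave 9 higher (1.57%) and 14 lower (2.45%), shares near those of all 8116 unlinked ones (1.72% and 2.24%). The division into linked and unlinked rests on the other 8 pools of both durations, and the 1-week control pool is the one with the high pancreas genes. Outside the lymphocyte-linked set, steps back were a smaller share where the 10% pool made the choice. From above they made up 4.99% of those chosen by the 10% pool and 8.82% of those chosen by the 20% pool, and from below 5.52% and 19.5%. For the linked probe sets the shares were 31.3% and 39.4%.

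At 1 week the step from 20% to 30% ran the other way for the lymphocyte genes. By the chip rule 97 probe sets were higher at 30% than at 20% at 1 week (1.02%) and 246 lower (2.58%), together 343 (3.60%), and 178 of the 246 were lymphocyte-linked. Of the 260 linked probe sets higher at 30% at 1 month, 135 were lower at 30% at 1 week by the rule and none was higher. The 30% and 20% pools of 1 week are among those that set the link. A fall along with the lymphocyte mean is thus partly built into these counts of linked probe sets. Over the unlinked probe sets the steps at 1 month and at 1 week correlated at 0.08. Of 140 unlinked ones higher at 1 month 14 were higher (10% of them) and 7 lower at 1 week. Of 182 lower at 1 month 3 were lower (1.65%) and 11 higher. Among all 8116 unlinked probe sets 1.2% were higher and 0.84% lower at 1 week. The difference between the steps of 1 month and 1 week passed limma for 0 probe sets, with a lowest adjusted p of 0.24 and 399 (4.19%) under an unadjusted p of 0.05. With each chip centred it passed for 3: Cd3d, Prkcq and Tmem229b. With the lymphocyte score as a covariate the step at 1 month passed limma for 0 probe sets, with 328 (3.45%) under an unadjusted p of 0.05 and a lowest adjusted p of 0.9905. Just inside the limit of the chip rule lay Pgs1 (0.585), Myl4 (-0.589) and Sema6a (0.590), and just outside it Tp53inp2 (-0.585), Cd68 (0.585) and Alg10 (0.584).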

How the data were processed

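The values are intensities that the authors deposited as MAS5 signals of 1-colour rat arrays, MAS5 being the tool in the submitters' processing notes. Columns with detection or change calls were not used here. Chips sharing a replicate number and duration had the same trimmed mean (98.45 and 98.1 at 1 month, 77.74 and 111.7 at 1 week), so replicate numbers mark scaling sets. At 1 month the first-minus-second chip differences of the 30% and 20% pools correlated at 0.20 over probe sets. Of 15923 probe sets 57 array controls were left out. The platform annotation gave 12783 a single gene symbol, 312 several and 2771 none, and 12773 symbols matched the RefSeq gene table. Signals under 1 were set to 1 and log2 was taken. Probe sets were tested where their mean log2 signal reached the 40th percentile (a signal of 22.8), and the probe set of highest mean stood for a gene.

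Pool means were fitted with limma 3.58.1 in R 4.3.3 (eBayes with intensity trend, two-sided, Benjamini-Hochberg adjusted over 9520), with means of their own for the 30% and 20% pools of 1 month and a dose line per duration for the other 8 (4 residual degrees of freedom). Counts came from Python 3.11.15 with numpy 2.4.6 and pandas 2.3.3. The fits were also run on simulated data with independent normal noise at the fitted variances. Such data cannot show whether the 2 compared pools vary like the other 8. The number of arrays limits the precision. Members, lists and tests were chosen with earlier results of these data known.

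Named genes were the 12 unlinked genes of largest step in each direction, the 10 linked ones of largest step up and 4 down, the largest of each class (8, or 6 for new at 30%), up to 4 of each list that met the chip rule (the 2 largest where none did), and the graded and study lists. The remaining names (among them Cd53, Myh11, Des and further members of lists) were chosen after their values were seen. Some genes that the rule names are not given above, among them Ppp2r2b, the largest step down of all tested genes (-2.75). Alternatives were scaling, offset, filters, fold, single chips, left-out pools, the replicate block and the limit of the link.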

Additional observations from a re-analysis of the deposited data

Results flagged for a closer look

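The mean of the 15 lymphocyte markers moved in opposite directions between 30% and 20% CR at the 2 durations. It was higher at 30% by 2.62 log2 units at 1 month (2.63 and 2.61 by chip pair) and differed by -2.33 at 1 week (-2.31 and -2.35). The difference between durations was not tested for this mean, and each value compares 1 pool with 1 pool.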

How the results depend on the processing

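The limma step called 17 probe sets with the replicate block and 1 without the control, 5% or 10% pool of 1 month, and 0 under all other alternatives run (318 to 782 under an unadjusted p of 0.05). The difference of steps gave 3 with each chip centred. For the chip rule, 400 higher became 195 with an offset of 16, 1832 without a filter, 141 with the 60th percentile filter, 139 at 2-fold, 140 without linked probe sets and 510 to 709 from single chip pairs, which need no agreement. The 190 lower became 304 centred, 95 with the offset, 948 unfiltered, 81 with the stricter filter, 40 at 2-fold and 322 to 439 from single pairs. Without the block, over all 4 chip differences, they were 391 and 173.

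Turned back from above (53) became 103 centred, 85 quantile-normalized, 29 with the offset, 322 unfiltered, 27 with the stricter filter, 14 at 2-fold, 30 when chosen by the 10% pool and 75 to 112 from single pairs. Turned back from below (317) became 173, 978, 124 and 130 with the offset, without a filter, with the stricter filter and at 2-fold, and 65 without linked probe sets. Went on above (7) became 62 unfiltered, 4 with the stricter filter, 1 at 2-fold and 12 to 13 from single pairs, and went on below (7) became 4 centred, 2 with the offset, 64 unfiltered, 2 with the stricter filter, 1 at 2-fold, 25 when chosen by the 10% pool and 15 to 24 from single pairs.

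The 287 fewer at 30% (alternatives chosen after seeing the data) became 485 centred, 185 quantile-normalized and 145 with the stricter filter, of them linked 131, 164 and 118. Outside the linked set the 71 became 354, 21 and 27, 115 unfiltered, 4 at 2-fold and 21 to 47 from single pairs. A link at 0.9 kept 661 probe sets. Of probe sets apart at 1 week, 33 further the same way became 3 at 2-fold and 46 to 73 from single pairs, and 247 opposite became 102 at 2-fold and 30 without linked probe sets.

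Of 545 alternative values for 164 named genes 461 stayed within the spread of the chips and 76 moved beyond it. In 8 more, a difference that met the chip rule turned sign in another probe set of the gene: Gabrr2 -0.80, Hlf 1.19, Icoslg 1.53, Mafg -0.88, RT1-Ba -0.44, Rasgef1b 0.18, Scd2 -0.19 and Srebf2 -1.52. All of these other probe sets except that of Scd2 were below the signal filter. The cause was not tested.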
